A study of Mus musculus with 6 samples.

Results

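The 10 genes described here encode the NFAT transcription factors (Nfatc1, Nfatc2, Nfatc3 and Nfat5), the subunits of the phosphatase calcineurin (the catalytic subunit genes Ppp3ca, Ppp3cb and Ppp3cc and the regulatory subunit gene Ppp3r1), and 2 regulators that bind calcineurin (Rcan1 and Rcan3). They were chosen by symbol, and all 10 were present among the 17744 genes of the authors' full table. CD8 T cells had been purified by flow sorting from mouse spleen on CD45, CD3 and CD8a, with a purity check by flow cytometry before sequencing. The series holds 3 control libraries, labelled as wild type with the treatment control, and 3 libraries labelled as fus irradiation, where fus is focused ultrasound by the series title and the genotype field only repeats the treatment. The ultrasound libraries are called ultrasound 1, 2 and 3 by the numbers in their titles. Mouse strain, age, tumour status, dose and interval after treatment are not given in the sources used here. Nothing in the labels says whether the libraries came from separate animals, so p-values measure only the spread between these libraries.

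In T cells, engagement of the antigen receptor releases calcium from internal stores and opens calcium channels of the plasma membrane. Calcium-bound calmodulin then activates calcineurin, a dimer of 1 catalytic and 1 regulatory subunit, which strips phosphates from NFATc proteins so that they enter the nucleus and switch on cytokine and activation genes. The immunosuppressants cyclosporin A and tacrolimus block this step. Nfat5 is the distant relative in the family: it responds to osmotic stress and is not controlled by calcineurin in the same way. Rcan1 is both a calcineurin inhibitor and a well-known NFAT target gene, and is transcribed from alternative promoters, of which the internal one is known to respond to NFAT.

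Both Rcan1 start sites listed by RefSeq (GRCm38.p6, the assembly also called mm10) are shown because Rcan1 was the 1 gene of the 10 that passed the test below. Rcan1 lies on the minus strand of chromosome 16, at chr16:92391951-92466169. Each line gives the 250 bases before a start site, 5′ to 3′ on the gene's strand, and capitals mark GGAAA, the core of the NFAT binding site, read on both strands (TTTCC is the same core on the other strand).
Rcan1 upstream start, chr16:92466170-92466419, minus strand: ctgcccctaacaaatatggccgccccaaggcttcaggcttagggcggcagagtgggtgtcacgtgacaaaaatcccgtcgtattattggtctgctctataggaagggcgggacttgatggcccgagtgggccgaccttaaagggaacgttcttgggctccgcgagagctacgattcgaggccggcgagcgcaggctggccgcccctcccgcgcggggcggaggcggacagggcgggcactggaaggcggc
Rcan1 internal start, chr16:92400079-92400328, minus strand: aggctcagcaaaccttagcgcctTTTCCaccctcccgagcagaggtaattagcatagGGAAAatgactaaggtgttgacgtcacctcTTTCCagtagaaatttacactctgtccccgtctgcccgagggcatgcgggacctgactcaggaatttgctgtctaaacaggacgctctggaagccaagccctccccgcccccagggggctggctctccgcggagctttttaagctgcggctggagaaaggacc
The core occurred 3 times before the internal start, at 227, 193 and 163 bases from it, and 0 times before the upstream start. It also occurred 3 times before Ppp3cb and before 1 of the 2 Nfatc2 starts, and at least 1 time in 7 of the 10 windows of these genes, so it was not particular to Rcan1. Of 32817 RefSeq windows of the same length, 55.6% held the core at least 1 time and 6.38% at least 3 times. The internal window also held TGACGTCA, the palindromic cyclic AMP response element, which 1.55% of windows hold; this motif was chosen after the sequence was seen. Of the 10 genes, 7 had an entry in the promoter table. The deposited values are 1 number per gene and library, so transcripts from the 2 Rcan1 starts cannot be told apart in them.

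Expression is given as FPKM, fragments scaled to gene length and library size, which allows levels of different genes to be compared. Whole reads recovered from these values numbered 35024080 to 38113103 per library. Ultrasound 1 stood apart from ultrasound 2 and 3 over many genes, so the 10 genes are given below with the value of each library. Some other genes are given only as group means or log2 changes. The sorted population expressed Cd8a at 251 to 314 FPKM and Cd8b1 at 438 to 562. Markers of other cells were also present. Summed over 8 monocyte and macrophage markers, the level was 298 to 668 FPKM in controls and 1775, 1828 and 3195 in ultrasound 1, 2 and 3. For 7 of the 8 markers the lowest ultrasound value exceeded the highest control value (25.9% of all genes tested). All 8 were detected in the controls. The sum over 7 B cell markers was 230 to 355 FPKM in controls, 171 in ultrasound 1, 893 in ultrasound 2 and 780 in ultrasound 3. The sum over 7 neutrophil markers was 140 to 476 FPKM in controls, 1751 in ultrasound 1, and 468 and 487 in ultrasound 2 and 3. Over 9 of 10 T cell markers it was 1723 to 1827 FPKM in controls, 1482 in ultrasound 1, and 1969 and 1881 in ultrasound 2 and 3. Within that sum 2 of 9 genes lay below every control in all ultrasound libraries (8.96% of all genes tested). Cd28 was at 56.7 to 69.9 FPKM in controls and 35.1, 19.5 and 18.2 in ultrasound 1, 2 and 3. Cd3d was at 204 to 223 FPKM in controls and 157 to 198 in ultrasound libraries. Cd3e was at 191 to 209 FPKM in controls, 165 in ultrasound 1, and 310 and 288 in ultrasound 2 and 3. Summed dendritic cell markers were at 17.2 to 36.3 FPKM in controls and 21.6, 61.7 and 56.3 in ultrasound 1, 2 and 3. Summed NK cell markers were at 2.70 to 4.37 FPKM in controls and 7.43, 21.3 and 18.6 in ultrasound 1, 2 and 3. Of the CD4 T cell markers, Cd4 was at 41.5 to 59.8 FPKM in controls and 55.8, 57.2 and 74.6 in ultrasound 1, 2 and 3, Foxp3 at 8.78 to 12.9 and 22.5, 12.8 and 14.9, and Ctla4 at 81.5 to 88.8 and 76.8, 14.4 and 15.8. Erythroid markers summed to 82.4 to 132 FPKM in controls and 54.5 to 112 in ultrasound libraries, and platelet markers to 1.02 to 2.74 and 1.74 to 4.08.

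In the control libraries the regulatory subunit gene Ppp3r1 was the most abundant of the 10, at 50.2 ± 4.24 FPKM (SD, n = 3), followed by Nfatc3 at 40.6 ± 4.29, Nfatc1 at 33.3 ± 2.81, Ppp3cc at 31.1 ± 0.741 and Ppp3cb at 28.6 ± 2.55. The ranges of Nfatc1 and Ppp3cc overlapped, as did those of Ppp3cc and Ppp3cb. Nfatc2 followed at 13.1 ± 1.09 FPKM and Ppp3ca at 6.87 ± 0.316. Nfat5 at 5.37 ± 1.11 and Rcan3 at 5.16 ± 0.353 overlapped in their ranges, and Rcan1 was the lowest at 3.04 ± 0.464. Ppp3cb (chr14:20499364-20546573) and Ppp3cc (chr14:70217864-70289536) lie on chromosome 14, Ppp3ca at chr3:136669714-136937727, Ppp3r1 at chr11:17159298-17200380 and Rcan3 at chr4:135412308-135433871 (RefSeq, GRCm38.p6). All 10 passed the filter on low values, with the fewest reads for Rcan1, 230 to 718 per library.

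**Figure D1:**
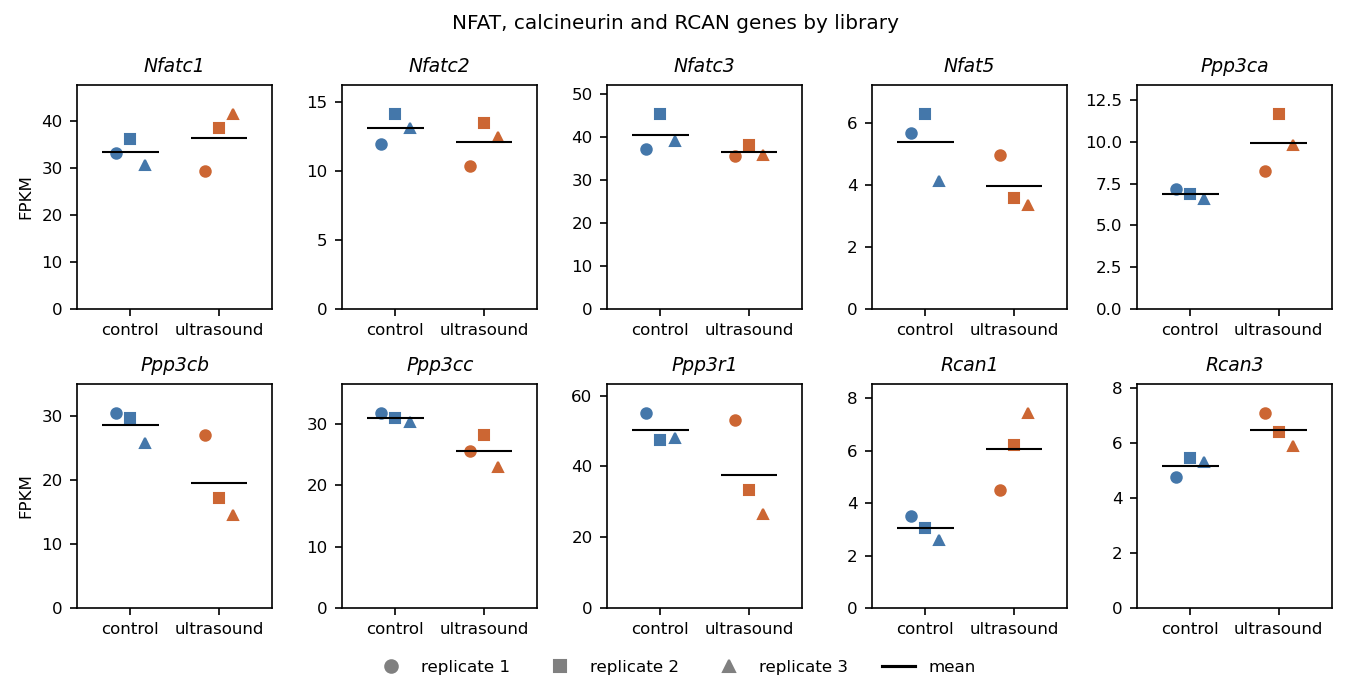
FPKM (vertical axes, linear, from 0) of the 10 genes in 3 control libraries (blue) and 3 ultrasound libraries (orange). Marker shapes give the replicate number and black lines the group means; for Rcan1, Rcan3 and Ppp3ca all 3 ultrasound points lie above the controls, and for Ppp3cc all 3 lie below.

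Comparison of ultrasound with control libraries asked which of the 10 genes differ with the treatment. Rcan1 rose, from 3.50, 3.03 and 2.57 FPKM in control 1, 2 and 3 to 4.51, 6.23 and 7.44 in ultrasound 1, 2 and 3. The groups did not overlap, and the lowest treated value was that of ultrasound 1. The mean was 3.04 ± 0.464 FPKM in controls and 6.06 ± 1.47 in ultrasound libraries (SD, n = 3 each). The log2 change was 0.79 on the log2(FPKM + 1) scale (standard error 0.18, 95% interval 0.36 to 1.22, limma adjusted p 0.0464). On recovered reads this was 313, 269 and 230 in controls against 402, 591 and 718. In the authors' deposited table the fold change of Rcan1 is 1.83 with q 0.00872.

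Of the 10 genes, 1 passed a limma adjusted p of 0.05, against 8.11% of all 10655 genes tested, so the share among these genes was near that of the whole table. By direction, 1 was called higher (6.55% of all genes) and 0 lower (1.56%). At an unadjusted limma p under 0.05, 5 of the 10 passed (31.2% of all genes). With voom on recovered reads 0 of the 10 were called (7.88% of all genes) and 5 had an unadjusted p under 0.05 (31.4%). Every ultrasound library lay above every control for 3 genes (25.9% of all genes) and below for 1 (8.96%). The median log2 change was -0.13 over the 10 and 0.09 over all genes tested. The authors' deposited q was under 0.05 for 2 of the 10, Rcan1 and Ppp3cc, against 12.3% of the genes in that table. The call for Rcan1 was lost in 11 of 17 alternatives, among them the fits without control 1, 2 or 3 or ultrasound 2 or 3 (limma adjusted p 0.0768 to 0.185), and its direction was kept in all 17. Over all genes, the 10 here and the lists below included, limma called 0 without control 2, control 3, ultrasound 2 or ultrasound 3, with 1913 to 2137 genes at an unadjusted p under 0.05 (voom with all 6 libraries called 840). Without ultrasound 1, 7 of the 10 passed, against 53.6% of all genes.

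**Figure D2:**
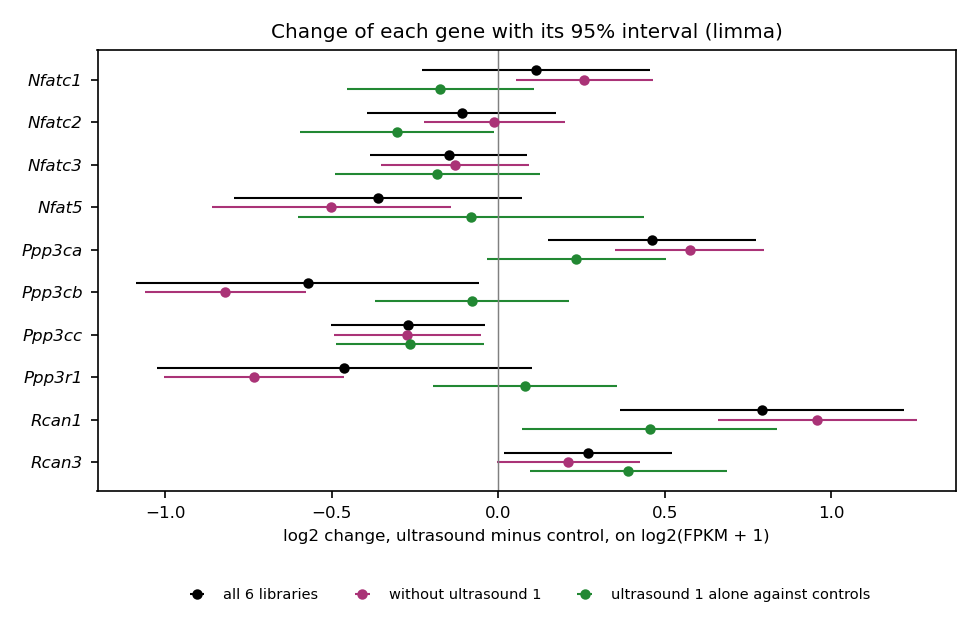
Log2 change of each gene, ultrasound minus control on log2(FPKM + 1) (horizontal axis), with 95% intervals from limma: black for all 6 libraries, purple without ultrasound 1 and green for ultrasound 1 alone against the controls. Ppp3cb and Ppp3r1 lie at -0.82 and -0.73 without ultrasound 1 and near 0 in ultrasound 1 alone; Rcan1 lies above 0 in all 3.

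Rcan1 ranked the libraries in the same order as the sum of the monocyte and macrophage markers: ultrasound 3 was highest in both, then ultrasound 2, ultrasound 1, control 1, control 2 and control 3. Other marker sums gave other orders: the neutrophil sum was highest in ultrasound 1, and the B cell, dendritic cell and NK cell sums in ultrasound 2. The part of any of these cells in the Rcan1 result was not tested. In bulk RNA, more cells of a type and more RNA per cell cannot be told apart. Scaled to the T cell markers in place of library size, the log2 change of Rcan1 was 0.92 (limma adjusted p 0.0171). The 9 markers of that scaling weigh alike on the log scale and include Cd28, which lay below every control in all ultrasound libraries. What Cd28 adds to the results with T cell marker scaling, here and below, was not tested. With median-of-ratios size factors the log2 change of Rcan1 was 0.69 (limma adjusted p 0.0702). In ultrasound 1 alone against the controls it was 0.46, with a 95% interval of 0.07 to 0.84 and a limma adjusted p of 0.198, in a fit where the lone library is assumed to vary like the controls. The 5 genes whose values followed Rcan1 most closely over the 6 libraries were E230029C05Rik, Zcchc24, Nqo2, Ube2f and Arl6ip4, in that order, each with a Pearson r of 0.9974 or higher on log2(FPKM + 1). In all, 203 genes had an r over 0.98, and these values share 6 libraries in which ultrasound 2 and 3 stand apart.

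Rcan3, the other regulator, had 4.76, 5.42 and 5.31 FPKM in the controls, against 7.08, 6.37 and 5.88 in ultrasound 1, 2 and 3. The groups did not overlap, and here ultrasound 1 was the highest library, unlike for Rcan1. Rcan3 had a log2 change of 0.27 (standard error 0.11, limma adjusted p 0.142). Nfatc4 and Ppp3r2 were looked for and were not present under these symbols in the authors' full table. Rcan2, a related regulator of this kind, was outside the tested set, with 0 reads in the controls and in ultrasound 1, 25 in ultrasound 2 and 5 in ultrasound 3.

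The calcineurin catalytic subunit genes differed in opposite directions by their values, though none passed the adjusted threshold with all 6 libraries. Ppp3ca encodes the alpha isoform of the catalytic subunit and had 7.19, 6.88 and 6.56 FPKM in the controls against 8.26, 11.7 and 9.83 in ultrasound 1, 2 and 3. The groups did not overlap, and control values spanned less than 1 FPKM. The mean was 6.87 ± 0.316 FPKM in controls and 9.93 ± 1.72 in the ultrasound group (SD, n = 3 each). The log2 change was 0.46 (standard error 0.13, limma adjusted p 0.075), 0.58 without ultrasound 1 (limma adjusted p 0.00271) and 0.24 in ultrasound 1 alone. With median-of-ratios size factors it was 0.35 (limma adjusted p 0.118), with upper-quartile scaling 0.36 (0.120), and scaled to the T cell markers 0.60 (0.0171), where 29.2% of all genes passed.

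Ppp3cb, which encodes the beta isoform, had 30.5, 29.7 and 25.7 FPKM in the controls, against 27.0, 17.1 and 14.5 in ultrasound 1, 2 and 3. Ultrasound 1 lay within the controls, and ultrasound 2 and 3 lay below them. The log2 change was -0.57 with all libraries (standard error 0.22, limma adjusted p 0.133) and -0.82 without ultrasound 1 (limma adjusted p 0.000973). Ppp3cc, the gamma isoform gene, had 31.8, 30.9 and 30.4 FPKM in the controls, against 25.7, 28.3 and 23.0 in ultrasound libraries. Here all 3 ultrasound libraries, ultrasound 1 included, lay below the controls, by a log2 change of -0.27 (standard error 0.098, limma adjusted p 0.121), and by -0.27 without ultrasound 1 (limma adjusted p 0.0424). With median-of-ratios size factors the log2 change of Ppp3cc was -0.39 (limma adjusted p 0.0547), and with upper-quartile scaling -0.38 (0.0644). Scaled to the T cell markers it was -0.11 (0.522), where the median of all genes was 0.23. In the authors' deposited table Ppp3cc has a fold change of 0.756 and q 0.0031.

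Ppp3r1 encodes calcineurin B, the calcium-binding regulatory subunit shared by these catalytic isoforms. Its level was 55.1, 47.5 and 48.0 FPKM in the controls, against 53.0, 33.4 and 26.5 in ultrasound 1, 2 and 3. Like Ppp3cb, it was low in ultrasound 2 and 3 and within the controls in ultrasound 1. Its log2 change was -0.46 with all libraries (standard error 0.24, limma adjusted p 0.222), -0.73 without ultrasound 1 (limma adjusted p 0.00224), and 0.08 in ultrasound 1 alone (limma adjusted p 0.756). Over the 6 libraries Ppp3r1 and Ppp3cb varied together with a Pearson r of 0.971, and Ppp3cb and Ppp3ca in opposite ways at -0.837; each r is a description over libraries that fall apart as described.

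Shares within a library do not move with its scaling, so the makeup of the catalytic subunit transcripts was compared in this way. A share can still move with the mix of cells, and the marker sums above differed between libraries. The part of that mix in the shares was not tested. Ppp3ca made up 10.3%, 10.2% and 10.5% of the summed FPKM of the 3 catalytic subunit genes in the controls, against 13.6%, 20.5% and 20.8% in ultrasound 1, 2 and 3. Every ultrasound library was above the controls, with ultrasound 1 between them and the other two. The mean share was 10.3% ± 0.142 in controls and 18.3% ± 4.08 in ultrasound libraries (SD, n = 3 each), with a two-sided exact permutation p of 0.1, the smallest that 3 against 3 can give. The share of Ppp3cb was 43.8%, 44.0% and 41.1% in controls and 44.3%, 30.0% and 30.6% in ultrasound libraries (exact permutation p 0.4). The share of Ppp3cc was 46.7% ± 1.53 in controls and 46.8% ± 4.04 in ultrasound libraries (exact permutation p 0.9, n = 3 each). Adjusted over the 6 shares compared, these 3 for calcineurin and 3 for NFATc, the exact permutation p was 0.45, 0.48 and 0.9 for Ppp3ca, Ppp3cb and Ppp3cc. The summed FPKM of the 3 genes was 69.5, 67.5 and 62.7 in controls and 60.9, 57.1 and 47.3 in ultrasound 1, 2 and 3 (exact permutation p 0.1). By library size every ultrasound library thus lay below every control. Unlike a share, this sum moves with the scaling, and it was not tested under the other scalings.

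**Figure D3:**
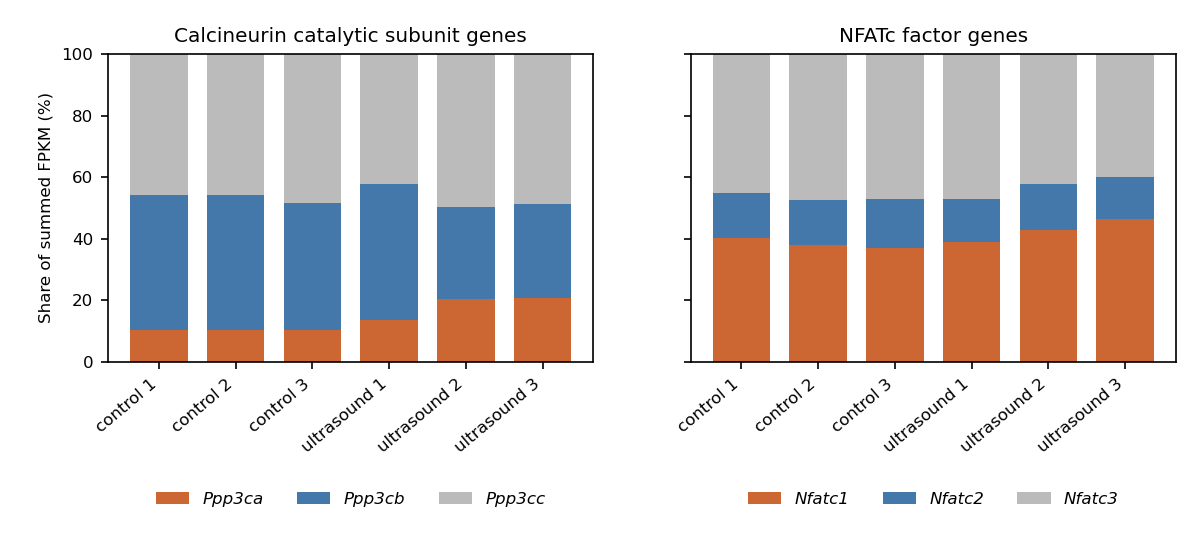
Share of the summed FPKM (vertical axis, percent) taken by each calcineurin catalytic subunit gene (left) and each NFATc gene (right) in the 6 libraries, as stacked bars. Ppp3ca takes 10.2% to 10.5% in controls and 13.6% to 20.8% in ultrasound libraries.

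None of the NFAT factor genes passed the adjusted threshold with all 6 libraries, and the groups overlapped for each of them. Nfatc1, whose short isoform is induced by NFAT itself after activation, had 33.1, 36.2 and 30.6 FPKM in the controls, against 29.3, 38.4 and 41.5 in ultrasound 1, 2 and 3. Ultrasound 1 was the lowest of the 6 libraries and ultrasound 2 and 3 the highest. The B cell marker sum had the same pattern (171 FPKM in ultrasound 1, 893 and 780 in ultrasound 2 and 3). So did the T cell marker sum (1482 in ultrasound 1, 1969 and 1881 in ultrasound 2 and 3). The part of the cell mix in the Nfatc1 values was not tested. The log2 change of Nfatc1 was 0.11 with all libraries (standard error 0.14, 95% interval -0.23 to 0.46, limma adjusted p 0.593) and 0.26 without ultrasound 1 (limma adjusted p 0.0396). In ultrasound 1 alone against the controls it was -0.17. Other scalings move all genes together, so values are also given relative to the median of all genes, which was 0.09 by library size, -0.02 with median-of-ratios size factors, -0.01 with upper-quartile scaling and 0.23 with T cell marker scaling. Nfatc1 lay 0.03, 0.02, 0.02 and 0.04 above that median, in the same order.

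Nfatc2, the NFAT factor long present in resting T cells, had 12.0, 14.1 and 13.1 FPKM in the controls, against 10.4, 13.4 and 12.4 in ultrasound libraries. The log2 change was -0.11 (95% interval -0.39 to 0.17, limma adjusted p 0.537). Nfatc3, the most abundant NFAT gene in the controls, had 37.3, 45.4 and 39.0 FPKM there, against 35.5, 38.0 and 35.7 in ultrasound libraries. Its log2 change was -0.15 (95% interval -0.38 to 0.09, limma adjusted p 0.326). Relative to the median of all genes, Nfatc2 lay at -0.20 by library size and -0.19 with T cell marker scaling, and Nfatc3 at -0.23 and -0.22, although T cell marker scaling put their own log2 changes at 0.04 and 0.01. The summed FPKM of Nfatc1, Nfatc2 and Nfatc3 was 86.9 ± 7.64 in controls and 84.9 ± 8.41 in ultrasound libraries (SD, n = 3 each, two-sided exact permutation p 0.9). Within that sum, Nfatc1 held 40.2%, 37.8% and 37.0% in controls and 39.0%, 42.7% and 46.3% in ultrasound 1, 2 and 3 (exact permutation p 0.2).

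Nfat5, the osmotic stress factor, had 5.69, 6.30 and 4.14 FPKM in the controls, against 4.96, 3.57 and 3.34 in ultrasound 1, 2 and 3. Ultrasound 1 lay within the controls, and the other two lay below control 3, the lowest control. Nfat5 had a log2 change of -0.36 (standard error 0.18, limma adjusted p 0.215) and, without ultrasound 1, -0.50 (limma adjusted p 0.0286). Of 5 genes listed as Nfat5 tonicity targets, 4 were tested and 1 passed, in the higher direction (6.55% of all genes): Slc6a6, the taurine transporter, rose from 17.3 ± 0.897 to 24.5 ± 2.89 FPKM (SD, n = 3 each, log2 change 0.47, limma adjusted p 0.0481). The call was lost with median-of-ratios size factors (limma adjusted p 0.115), with upper-quartile scaling, with no filter on low values and with the replicate block. Among other settings, it was also lost without control 1 and without mitochondrial, hemoglobin and immunoglobulin genes. The median log2 change of the 4 was 0.08, against 0.09 over all genes tested.

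Among genes that feed calcium to calcineurin, 1 of 12 passed, in the higher direction (6.55% of all genes were called higher). Orai1, the pore of the store-operated calcium channel, had 11.8, 10.1 and 11.4 FPKM in the controls, against 15.9, 16.9 and 18.9 in ultrasound libraries. All ultrasound libraries, ultrasound 1 included, lay above the controls, with a log2 change of 0.59 (standard error 0.10, limma adjusted p 0.0311). Its call was lost with median-of-ratios size factors (0.48, limma adjusted p 0.0565), with no filter on low values and with the replicate block. Orai3, a related channel gene named after its values were seen, had a larger log2 change, 0.82, that did not pass (limma adjusted p 0.064), with 10.1, 18.2 and 17.4 FPKM in ultrasound 1, 2 and 3 against 7.21 to 8.84 in controls. With T cell marker scaling 5 of the 12 passed, all higher (29.2% of all genes passed). The 12 genes, which also cover the calcium sensors Stim1 and Stim2, the store channels Itpr1 to Itpr3, Plcg1 and the calmodulins, had a median log2 change of -0.01, with 6 positive and 6 negative. With limma 0 of 4 tested calcineurin-binding proteins passed (8.11% of all genes) and 1 had an unadjusted p under 0.05 (31.2%). With voom on recovered reads the counts were also 0 (7.88%) and 1 (31.4%). They ranged in abundance up to Ppia, the receptor of cyclosporin A, at 1009 ± 22 FPKM in controls and 922 ± 81.6 in ultrasound libraries (SD, n = 3 each), while Akap5, at 0.109 FPKM in controls, was too low to be tested.

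NFAT is sent back to the cytoplasm by kinases that rephosphorylate it and by the exportin Xpo1. Of 10 such genes, 0 passed with limma with all 6 libraries (8.11% of all genes), and 6 had an unadjusted p under 0.05 (31.2%). Voom on recovered reads called 1 (7.88%). The most abundant, Gsk3a, had 68.3, 67.7 and 70.1 FPKM in the controls, against 74.9, 87.7 and 91.6 in ultrasound libraries (log2 change 0.29, limma adjusted p 0.108), and the least abundant, Dyrk1b, had 1.41 ± 0.248 in controls and 1.87 ± 0.428 FPKM in ultrasound libraries (SD, n = 3 each, limma adjusted p 0.288). Xpo1, named after its values were seen, had 43.0, 41.9 and 37.1 FPKM in the controls, 39.7 in ultrasound 1, and 16.0 and 12.4 in ultrasound 2 and 3. That is the pattern of Ppp3cb and Ppp3r1, with ultrasound 1 within the controls (log2 change -0.99, limma adjusted p 0.141). Without ultrasound 1 all 10 of these genes passed, 5 higher and 5 lower, where 53.6% of all genes did.

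Of 20 listed NFAT target genes of T cells 19 were tested, and 14 of the 19 had a negative log2 change. Of these genes 5 fell and 1 rose at a limma adjusted p under 0.05 (1.56% and 6.55% of all genes). The median log2 change was -0.56 against 0.09 over all genes. The list was chosen with earlier results of these data known, so its counts are a description and no independent test. Below every control in all ultrasound libraries lay 9 of the 19, and above lay 2 (8.96% and 25.9% of all genes). The nuclear receptor genes Nr4a2 and Nr4a3 fell by 2.80 and 1.40 on the log2 scale (limma adjusted p 0.0311 and 0.0298). Nr4a2 had 21.6, 28.5 and 26.5 FPKM in the controls, against 7.8, 1.11 and 1.92 in ultrasound 1, 2 and 3. Nr4a3 went from 8.48, 6.5 and 6.67 FPKM to 2.73, 1.95 and 1.67, so ultrasound 1 lay below the controls as well. Ifng, the effector cytokine, fell by 1.58 (limma adjusted p 0.0304), with 18.3, 9.39 and 12.1 FPKM in ultrasound libraries against 34.8 or more in controls.

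Havcr2, which encodes the inhibitory receptor TIM-3 and is also known from myeloid cells, was the gene of this list that rose, from 6.66, 3.8 and 2.87 FPKM to 10.7, 10.9 and 10.9 (log2 change 1.18, limma adjusted p 0.038). Control 1, the control with the highest monocyte and macrophage marker sum, also had the highest Havcr2 among controls. Among ultrasound libraries Havcr2 was nearly level, while that sum was 1775, 1828 and 3195 FPKM in ultrasound 1, 2 and 3. The part of those cells was not tested. The other two called genes, Irf4 and Egr3, transcription factors induced by antigen receptor signals, were named after their values were seen and fell by 0.70 and 0.69 (limma adjusted p 0.0304 and 0.0328). Pdcd1, another listed target, measured 12.3 ± 1.0 and 12.3 ± 0.461 FPKM in the 2 groups (SD, n = 3 each; limma adjusted p 0.964). The values of Il2 stayed under 1 FPKM in all libraries, with 2 to 23 reads. Rcan1, itself a known NFAT target, was on the opposite side of the controls from 9 of these 19 genes in all 3 ultrasound libraries. In ultrasound 1 alone against the controls 2 of the list passed, Nr4a2 and Nr4a3 (0.68% of all genes). Without ultrasound 1 the count was 11 of 19, near the 53.6% of all genes that passed, and 10 of the 11 were lower (19.9% of all genes). Without control 1 the count was 4, of which 3 were lower. Over all genes that fit called 571 of 10568, of which 60 were lower. Without control 2, control 3, ultrasound 2 or ultrasound 3 the count of targets was 0, as it was over all genes.

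**Figure D4:**
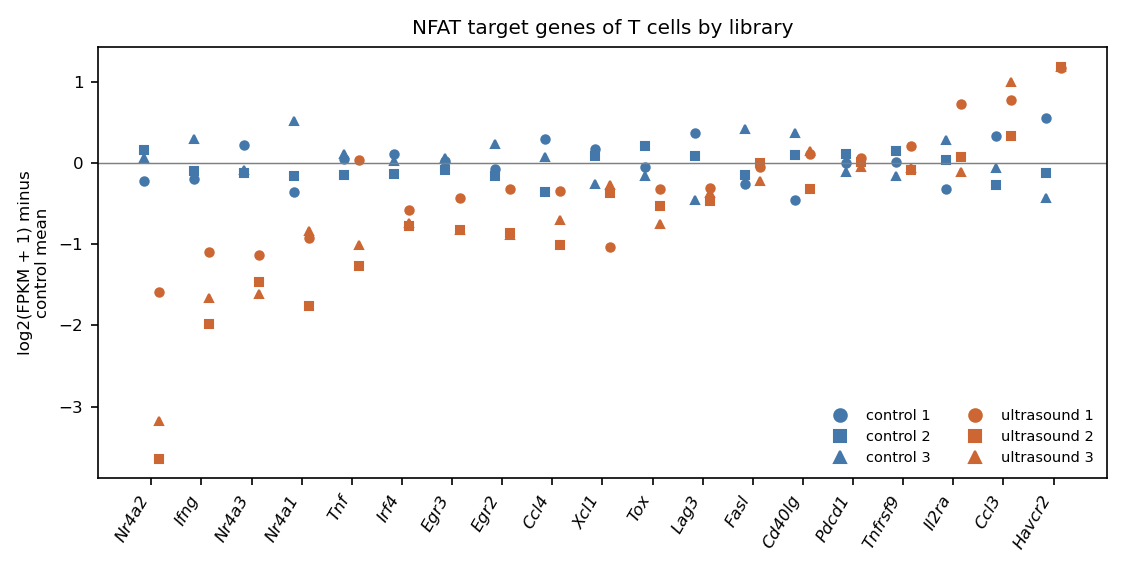
Values of 19 NFAT target genes by library, as log2(FPKM + 1) minus the mean of the 3 controls (vertical axis), ordered by the mean change. Blue points are controls and orange points ultrasound libraries, with shapes for the replicate number; Nr4a2, Ifng and Nr4a3 lie lower in all ultrasound libraries, and Havcr2 lies higher.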

How the data were processed

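CD8 T cells were profiled by RNA-seq in 3 control and 3 ultrasound libraries. Per the submitters' processing notes HISAT2, HTSeq, DESeq2, R 3.2.0 and build mm10 were used, with no roles given. The FPKM values per library were made by the authors, per the file headers. The authors' table also gives a signal (means of DESeq2 normalized counts), its fold change as a ratio and its log2, and p-values and q-values, all per the file headers. A second deposited table, a subset of the same rows, was not used.

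A gene was tested if 3 or more libraries reached 1 FPKM. The test was limma 3.58.1, run in R 4.3.3 with its trend and robust options, on values of log2(FPKM + 1), which understates changes of low genes, with Benjamini-Hochberg adjustment over all genes and a threshold of 0.05. P-values are two-sided. Whole reads were recovered from the linear relation between FPKM columns and group means: 100% of 77578 values under 2000 reads lay within 0.05 of a whole number. Reads carry no molecular identifiers, so a floor of 3 reads covers counting error only. Both steps were tested on simulated data. The genes, the lists of pathway genes and markers, and the alternatives were chosen with earlier results of these data known. Named were all 10 genes, up to 4 called genes per list by size of change (else the most and least abundant), and 5 genes most like Rcan1. Python 3.11.15, scipy 1.17.1 and matplotlib 3.10.9 were also used.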

Additional observations from a re-analysis of the deposited data

Results flagged for a closer look

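Rcan2, a relative of Rcan1 and Rcan3 outside the tested set, had 25 reads in ultrasound 2 and 5 in ultrasound 3, against 0 reads in every control and in ultrasound 1; a count of 0 allows up to 3 reads. It was singled out because a gene with no reads in any control had more than that floor in an ultrasound library. The share of all genes that meet this rule is not given here. The authors' deposited q for Rcan2 was 0.166.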

How the results depend on the processing

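The count of 1 gene among the 10 was 0 with no filter on low values, median-of-ratios size factors, upper-quartile scaling, the replicate block, ultrasound 1 alone or voom on recovered reads, and 2 with T cell marker scaling, by the authors' deposited q or at an adjusted p threshold of 0.1; leaving out one library gave 0 to 7. The count of 864 over all genes was 0 with no filter or the replicate block (4216 and 3249 at an unadjusted limma p under 0.05), 468 with median-of-ratios size factors, 3118 with T cell marker scaling (3008 higher and 110 lower, against 698 and 166), 70 with ultrasound 1 alone, 2179 by the authors' q and 1962 at threshold 0.1; leaving out one library gave 0 to 5628. Median-of-ratios size factors split 280 higher and 188 lower. T cell marker scaling, with Cd28 among its markers, moved the median log2 change of all genes to 0.23. The count of 6 NFAT targets was 0 with no filter or the replicate block, 2 with ultrasound 1 alone, 10 by the authors' q and 11 at threshold 0.1; leaving out one library gave 0 to 11. Leaving out one library gave counts of 0 over all genes for control 2, control 3, ultrasound 2 or ultrasound 3, with 1913 to 2137 genes at an unadjusted p under 0.05, and the highest without ultrasound 1. The alternatives for the target list were added after the data were seen. Of 170 log2 changes of the 10 genes under alternatives, 146 kept direction and side of the threshold, 11 (all Rcan1) lost the call, 8 gained it and 5 changed sign: Nfatc1 (-0.0074 with median-of-ratios size factors, -0.17 in ultrasound 1 alone), Nfatc2 (0.040) and Nfatc3 (0.010) with T cell marker scaling, and Ppp3r1 (0.080) in ultrasound 1 alone. The sign changes under a scaling follow its shift of all genes; relative to the median of all genes these 3 genes kept their side under each of the 4 scalings. The difference in the Ppp3ca share, 7.94 percentage points, was 12.3 on recovered reads without the length correction, where the longer gene weighs more. The labels do not say that a number marks shared animals, and no pairing was found: libraries with the same number had correlations of -0.04, 0.05 and 0.06 between their deviations from the group means. Except where stated, the cause was not tested.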
